A study of Mus musculus with 3 samples.

Results

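Collagen genes encode the alpha chains of the main structural proteins of the extracellular matrix, and are described here by where RNA polymerase II (RNAP2) and the Mediator subunit Med12 were found along them in cells of the mouse distal forelimb at E12.5. The members are the protein-coding genes of the mm9 genome (GENCODE vM1 annotation) whose symbol is Col, a number, a and a number, without Col2a1. This rule takes 42 of 22380 protein-coding genes, on 14 chromosomes. The rule uses symbols and no measured value, but was set with earlier results of these data known.

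The distal forelimbs came from wild-type embryos of normal gestation, were dissociated with collagenase into single cells and were fixed with formaldehyde before chromatin immunoprecipitation and sequencing (ChIP-seq), with the strain and the number of embryos per library not given in the sources used here. The sample labels give E12.5, the stage used here, whereas the design text of the series names an earlier embryonic day. The series has 3 samples, namely 1 RNAP2 library, 1 Med12 library and 1 input library, and a peak list of the RNAP2 and of the Med12 library was analysed here. As each antibody was used for a single library, there is no error between replicates for any value, no test was run, and the counts are set beside the same counts over all protein-coding genes.

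The RNAP2 list holds 20479 peaks and the Med12 list 10634. Each peak carries a score from the authors' peak caller, the negative log10 of its p-value multiplied by 10, with a median of 123 for RNAP2 and 56.8 for Med12. Both lists end at a score of 40.0, a p-value of 0.0001, so the absence of a listed peak does not show that a site was unbound. The methods of the study name a stricter p-value threshold for peak calling than the one at which the lists end. It equals a score of 50, and 2897 of the RNAP2 peaks and 3816 of the Med12 peaks lie below that score. Scores also grow with the depth of a library and were not compared between lists. The lists hold no read counts, so that the depth behind a single peak is unknown. The tissue is a mixture, and a weak peak in all cells cannot be told apart from a strong one in few of them. The starts of all 7 marker genes of distal limb mesenchyme, Msx1, Prrx1 and Lhx9 among them, had an RNAP2 peak. The same held for 2 of 5 cartilage markers (Sox9 and Sox6) and for 1 of 3 endothelial markers (Kdr, score 148). None of 4 bone, 3 skeletal muscle, 4 ectoderm and 3 blood markers had one.

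Collagen alpha chains share long repeats in which every glycine is followed by a pair of other residues, and assemble into helices of chains inside the endoplasmic reticulum. Fibrillar collagens are cut outside the cell and pack into the fibrils of skin, tendon, bone and cartilage, fibril-associated collagens coat these fibrils, and others form the sheets of basement membranes, beaded filaments around cells or proteins anchored in the plasma membrane. The limb bud at this stage consists mainly of mesenchyme in which the first cartilage condensations form. RNAP2 transcribes protein-coding genes and accumulates at their starts, and Mediator links transcription factors bound at enhancers to RNAP2 at promoters.

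The stretches of sequence that follow lie at the middle of 4 intronic sites where an RNAP2 and a Med12 peak overlapped inside a collagen gene, and are shown because these sites were found with both antibodies. They are 300 bases each, from mm9, on the plus strand, which is the strand opposite to transcription for Col5a2 and Col8a1. Capitals mark matches, on either strand, to the TATA box motif TATAAA, the box CCAAT, the GC box GGGCGG, the sequence CAATAAA reported as preferred by HOX13 factors, the AP-1 motif TGACTCA, and the Sox factor motifs, which are ACAAAG or, in another form, ACAATG, so that a match on the minus strand reads as its reverse complement.
Col25a1, intron 15 of 37, chr3:130227307-130227606: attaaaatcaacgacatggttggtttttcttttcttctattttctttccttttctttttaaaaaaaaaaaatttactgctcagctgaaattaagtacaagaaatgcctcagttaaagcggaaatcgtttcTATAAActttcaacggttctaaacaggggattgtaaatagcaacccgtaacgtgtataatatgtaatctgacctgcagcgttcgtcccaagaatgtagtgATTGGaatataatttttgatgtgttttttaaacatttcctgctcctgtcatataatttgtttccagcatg
Col5a2, intron 45 of 53, chr1:45442529-45442828: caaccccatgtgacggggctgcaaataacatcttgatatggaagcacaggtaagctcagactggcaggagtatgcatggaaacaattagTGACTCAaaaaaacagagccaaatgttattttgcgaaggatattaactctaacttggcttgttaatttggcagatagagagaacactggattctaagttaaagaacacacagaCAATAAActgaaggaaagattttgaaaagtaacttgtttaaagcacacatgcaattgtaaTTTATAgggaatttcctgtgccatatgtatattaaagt
Col24a1, intron 19 of 59, chr3:145049377-145049676: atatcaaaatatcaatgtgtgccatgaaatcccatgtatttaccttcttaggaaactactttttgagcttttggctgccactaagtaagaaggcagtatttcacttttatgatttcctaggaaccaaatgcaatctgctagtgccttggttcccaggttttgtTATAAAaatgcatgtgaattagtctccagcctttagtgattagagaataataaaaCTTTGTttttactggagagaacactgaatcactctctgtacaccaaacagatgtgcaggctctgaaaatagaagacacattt
Col8a1, intron 1 of 3, chr16:57694777-57695076: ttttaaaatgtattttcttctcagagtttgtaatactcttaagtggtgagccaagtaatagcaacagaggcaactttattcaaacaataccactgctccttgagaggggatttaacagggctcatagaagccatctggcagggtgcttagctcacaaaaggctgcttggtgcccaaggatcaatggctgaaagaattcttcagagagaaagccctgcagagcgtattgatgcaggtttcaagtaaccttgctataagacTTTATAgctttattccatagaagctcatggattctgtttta

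A pair of promoters is shown because they are the coding starts of collagen genes with both proteins, namely the start of Col3a1 and an inner start of Col9a1. Each is the 250 bases before the annotated start, on the plus strand of mm9 and in the direction of transcription, with capitals as above.
Col3a1, chr1:45368133-45368382: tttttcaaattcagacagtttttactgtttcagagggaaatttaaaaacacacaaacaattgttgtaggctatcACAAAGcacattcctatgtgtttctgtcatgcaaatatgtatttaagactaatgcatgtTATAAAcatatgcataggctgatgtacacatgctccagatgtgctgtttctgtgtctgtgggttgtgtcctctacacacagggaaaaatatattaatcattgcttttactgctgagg
Col9a1-002, chr1:24201776-24202025: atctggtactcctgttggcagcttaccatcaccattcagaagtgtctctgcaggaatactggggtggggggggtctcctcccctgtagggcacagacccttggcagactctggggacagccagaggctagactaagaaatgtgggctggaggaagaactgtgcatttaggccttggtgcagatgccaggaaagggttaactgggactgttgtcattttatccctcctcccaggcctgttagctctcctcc

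An RNAP2 peak was found within 1 kb of the start of 16 of the 42 collagen genes, 38.1%, beside 40.0% of all protein-coding genes, a share too close to read as particular to collagens. The peaks fell unevenly over the structural classes. Of 10 fibrillar collagen genes 8 had RNAP2 at the start, of 9 fibril-associated ones 5, of 6 genes of the basement-membrane network 2 and of 4 transmembrane collagens 1. The starts of the 3 hexagonal-network, 6 beaded-filament and 2 multiplexin genes, of the anchoring-fibril gene Col7a1 and of Col28a1 had none. All these counts are of genes, and Col4a1 and Col4a2 share 1 peak that is counted for both. Per gene, the median score of the collagen start peaks was 282, against 386 for all coding genes with a start peak. The median width was 2130 bp, against 1490 bp.

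**Figure D1:**
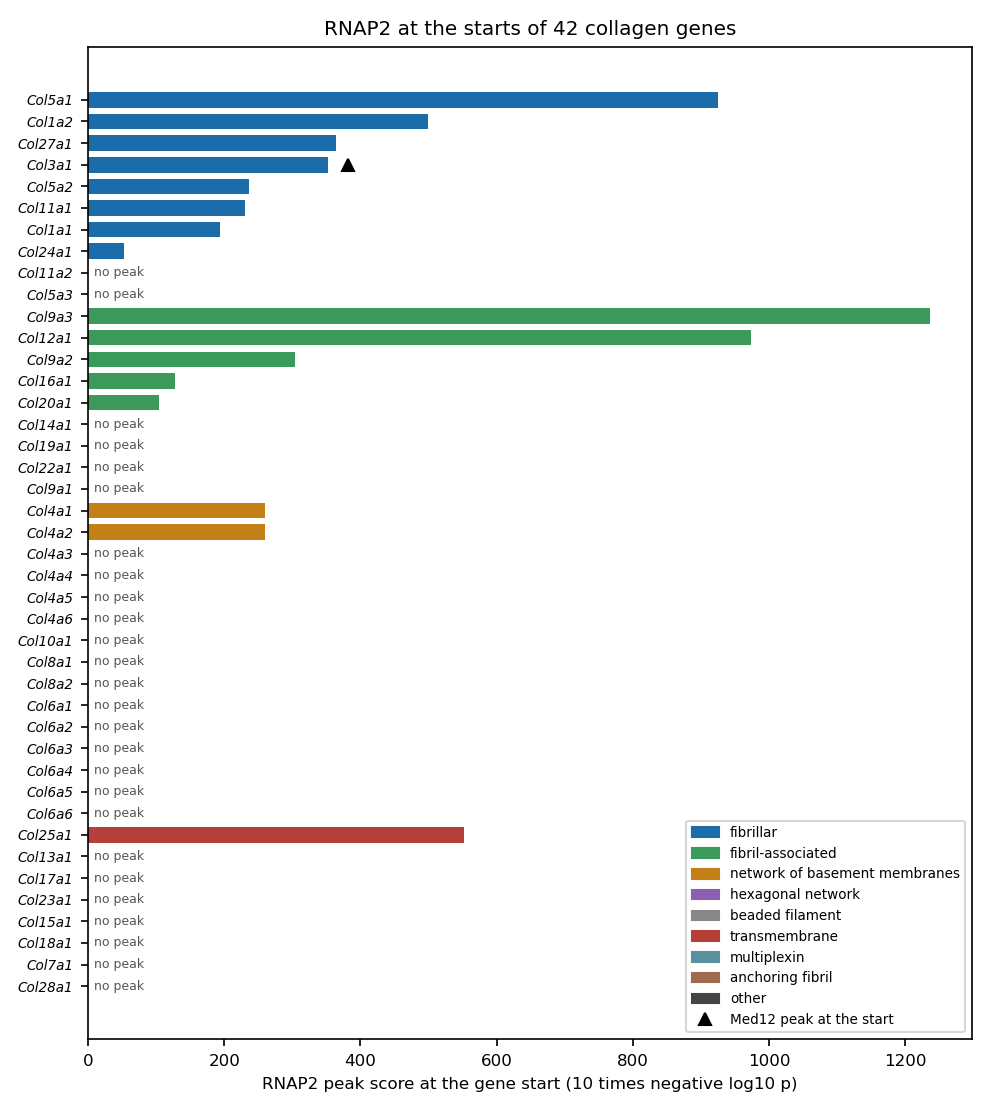
Score of the highest RNAP2 peak within 1 kb of the start of each of the 42 collagen genes (horizontal axis, 10 times the negative log10 p-value), grouped and coloured by structural class, with a triangle for a Med12 peak at the start. Scores run from 52.1 at Col24a1 to 1236 at Col9a3, 26 genes have no start peak, and Col3a1 carries the single triangle.

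Among the fibrillar genes, the chains of types I, III and V, the collagens of skin, tendon and loose connective tissue, had RNAP2 at the start except for Col5a3. Col5a1, whose product starts fibril assembly, had the highest score of the class (925), in a peak that also lies within 1 kb of the start of the noncoding transcript 2810430I11Rik-001. Col1a2, which encodes a chain of type I collagen, followed with a score of 499, in a peak of 1649 bp that begins 307 bp after the start. At Col1a1, which encodes the other chain of type I collagen, the start peak had a score of 193. The start peaks of these partner genes therefore stood at different ranks of the list, without a replicate to give the error of that difference. Col3a1, the chain of type III collagen, had a score of 352 and Col5a2, the partner of Col5a1 in type V collagen, one of 236.

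The fibrillar collagens of cartilage and the less abundant ones were more mixed. Col11a1, a chain of the thin fibrils of cartilage, had a start peak with a score of 230.5 and another of 84.9 within the same interval. Its partner Col11a2 had no peak of either list along the gene. Col27a1, a fibrillar collagen of developing cartilage, had a score of 364 and Col24a1, a minor fibrillar collagen, the lowest one of the members (52.1). Col5a3, the third chain of type V, had no RNAP2 peak and 1 Med12 peak, in intron 24 of 66 with a score of 46.9.

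The highest start score of all members belonged to a fibril-associated gene. Col9a3, a chain of the type IX collagen that decorates cartilage fibrils, had a score of 1236 in a peak of 2575 bp, and Col12a1, a fibril-associated collagen of dense connective tissue, had 974 in a peak of 3857 bp. Col9a2, the partner of Col9a3, had a score of 304 and Col16a1 one of 128, the latter in a peak that also lies within 1 kb of starts of the antisense gene Gm12963. The peak counted for Col20a1 (score 103) was centred 1.6 kb before its start, nearer to the start of 9230112E08Rik, and cannot be given to either gene. Col14a1, Col19a1, Col22a1 and Col9a1 had no RNAP2 within 1 kb of the gene start.

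Col9a1, the remaining type IX chain, had its RNAP2 peak at a downstream start instead. The gene (ENSMUSG00000026147.9, chr1:24184449-24259577) is known to be transcribed also from a promoter within it, which gives a shorter chain. The nearest RNAP2 peak lay 17.2 kb from the gene's own start and covered the first base of the coding transcript Col9a1-002 at 24202026, 17.6 kb into the gene. It was 2237 bp wide, from 24201684 to 24203920, with a score of 993. A Med12 peak from 24202568 to 24203721 lay within it, with a score of 177 and rank 726 of the Med12 list. With Col9a1 counted at this inner start, the starts of all 3 type IX chains carried RNAP2, and Med12 was found at Col9a1 alone of them. Outside Col9a1, the only inner start with a peak of its own was that of Col8a2-002, 13.7 kb into Col8a2, a chain of type VIII collagen, with an RNAP2 score of 66.4. The annotated start of Col27a1-001, 1.4 kb into the gene, lay under the peak already counted at the gene start. Over the starts of all coding transcripts, 18 collagen genes had RNAP2, where the share over all coding genes was 41.8%, and 2 had Med12, where it was 8.97%.

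The genes of type IV collagen, the network of basement membranes, lie in pairs that are transcribed away from each other, and these pairs differed. The starts of Col4a1 and Col4a2, which encode the chains present in nearly all basement membranes, are 21 bp apart and shared 1 RNAP2 peak, 2669 bp wide and scored 259.9, which therefore cannot be divided between them. Col4a3 and Col4a4, which encode chains of specialised basement membranes such as that of the kidney glomerulus, start 72 bp apart and had no RNAP2 peak at the starts or along either gene. Col4a5 and Col4a6, on the X chromosome with starts 1309 bp apart, had no peak of either list. The nearest RNAP2 peak was 138 kb from the starts of Col4a3 and Col4a4, and 397 kb or more from those of Col4a5 and Col4a6.

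Col25a1, a collagen anchored in the plasma membrane, was the only transmembrane member with RNAP2 at the start, with a score of 552. Col13a1 and Col17a1, the latter a component of the hemidesmosomes of epidermis, had no peak, and Col23a1 had peaks inside the gene. All 6 genes of type VI collagen, whose beaded filaments surround most connective tissue cells, were without a peak of either list. The nearest RNAP2 peak to the start of Col6a1 lay 6.2 kb away, and the nearest ones to the other Col6 starts lay between 18.9 kb and 198.8 kb away.

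In all, 17 collagen genes, 40.5%, had no peak of either list, beside 51.7% of all coding genes. They were Col4a3, Col4a5, Col4a6, the Col6 genes, Col7a1, Col10a1, Col11a2, Col13a1, Col15a1, Col17a1, Col18a1 and Col22a1. Col10a1 is the collagen of hypertrophic cartilage, Col7a1 forms the anchoring fibrils of skin, and Col15a1 and Col18a1 encode the multiplexins of basement membrane zones. Collagen genes are long, with a median span of 114.4 kb against 15.4 kb for all coding genes, and a long gene has more room for a peak. The share of bases under peaks divides by length, but it includes the peaks at starts, which make up less of a long gene. It was not computed among genes of like length, so a lower share cannot be read apart from length. RNAP2 peaks covered 1.22% of the summed collagen spans and 2.13% of those of all coding genes, and Med12 peaks 0.438% and 0.483%. The members with the largest covered share were short ones with RNAP2 at the start, namely Col3a1 with 16.5%, Col9a3 with 13.3%, Col9a2 with 13.1%, Col1a2 with 4.49% and, among long genes, Col5a2 with 4.32%.

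Med12 was found at the gene start of 1 collagen gene, 2.38%, beside 8.20% of all coding genes, and the same gene was the only one with overlapping RNAP2 and Med12 peaks there (7.53% of all coding genes). This was Col3a1 (ENSMUSG00000026043.11, chr1:45368383-45406551), with a Med12 score of 43.6, near the lower end of the list. Of all coding genes with RNAP2 at the start, 18.9% also had Med12 there, and of the 16 such collagen genes 1 had it. At the other RNAP2-bound collagen starts, the nearest Med12 peak was 1.9 kb to 276.1 kb away, with a median of 53.1 kb, against 79.3 kb over all coding genes with RNAP2 and no Med12 at the start. The closest of these belonged to Col12a1, where a Med12 peak with a score of 88.0 was centred 2.4 kb before the start.

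Away from the starts of coding transcripts, 15 collagen genes (35.7%) had an RNAP2 peak inside the gene, where 12.52% of all coding genes did, and 15 (35.7%) had a Med12 peak, where 9.56% did. Long genes alone gave closer shares. Among the 25 collagen genes of 100 kb or more, 13 had RNAP2 inside (52.0%) and 12 Med12 (48.0%), and among all 2401 coding genes of this length the shares were 47.4% and 49.0%. Per 100 kb of gene, collagen genes held 0.584 RNAP2 and 0.448 Med12 peaks, and all coding genes 0.733 and 0.373.

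**Figure D2:**
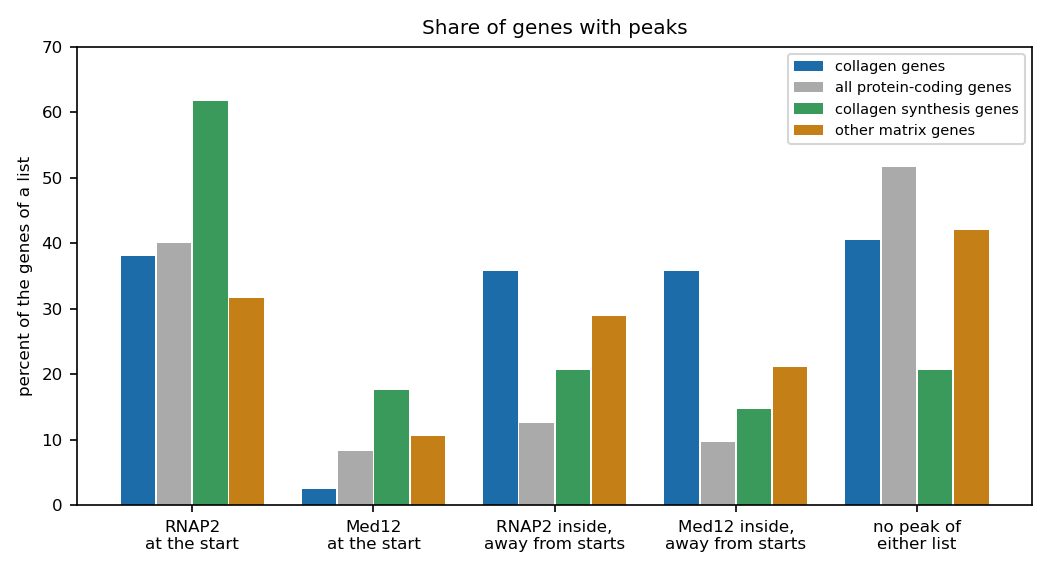
Percent of genes (vertical axis) with RNAP2 or Med12 at the start, with either inside the gene away from starts, or with no peak, for 42 collagen genes, 22380 protein-coding genes, 34 genes of collagen synthesis and 38 other matrix genes. Collagen genes stand near all coding genes for RNAP2 at the start (38.1% and 40.0%) and above them for peaks inside the gene (35.7% against 12.52% and 9.56%), before any allowance for their length.

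The inner peaks were mostly intronic, and few had a score of at least 100. Of 30 RNAP2 peaks inside collagen genes, 29 were centred in an intron and 1 beyond the 3′ end of Col12a1, and 4 had a score of at least 100 (13.3%, against 35.1% of the 7294 such peaks in any coding gene). Of 23 Med12 peaks, 20 were centred in an intron, 2 in an exon and 1 beyond the 3′ end of Col12a1, and 2 had a score of at least 100 (8.70%, against 16.7% of 3706). The exonic Med12 peaks lay in exon 5 of 52 of Col4a1 and in exon 48 of 48, the last one, of Col14a1. The median score was 63.0 for RNAP2, against 73.9 in any coding gene, and 57.4 for Med12, against 55.0. The inner peaks were centred at a median of 71.6 kb from the start for RNAP2 and 91.0 kb for Med12. Of the RNAP2 peaks, 3 lay within 5 kb. The median span of the collagen genes was 114.4 kb. Neither the distances nor the intronic counts were computed over all coding genes, so they only describe these peaks.

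**Figure D3:**
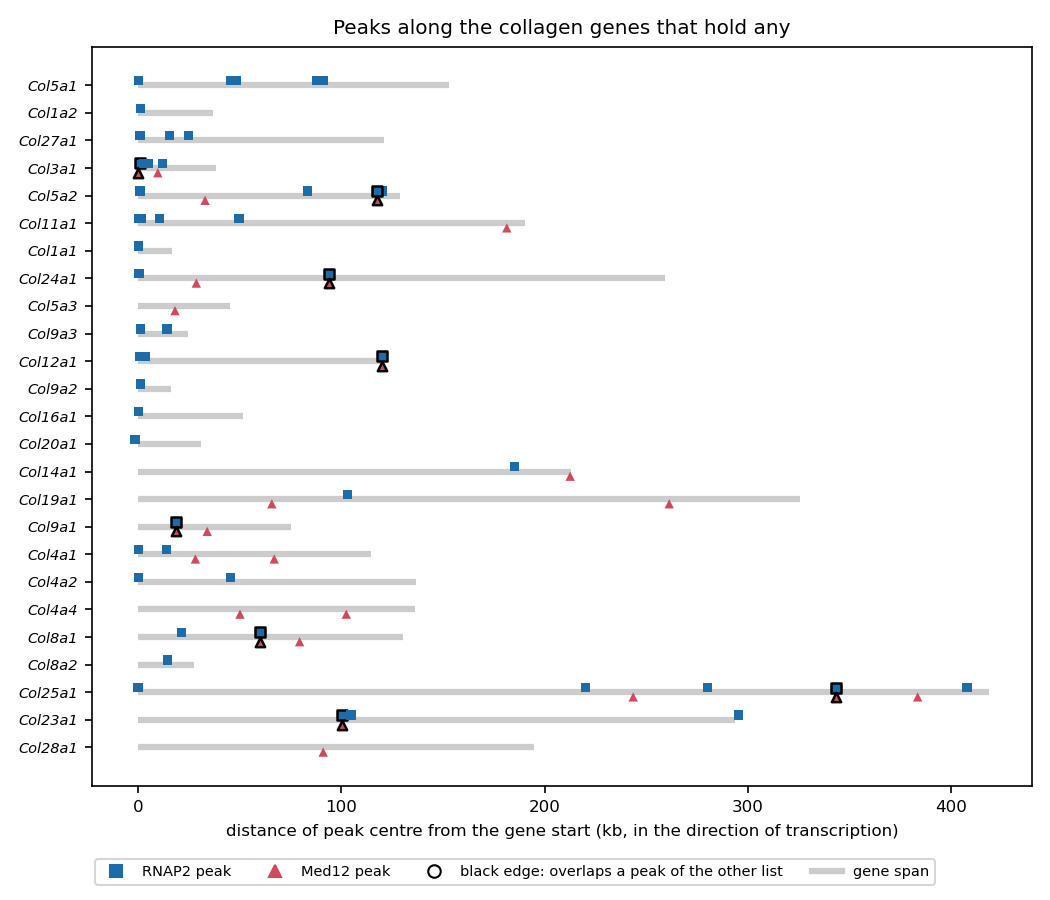
Position of every RNAP2 peak (squares) and Med12 peak (triangles) along the 25 collagen genes that hold any, as the distance of the peak's centre from the gene start in kb along the direction of transcription, with a black edge where peaks of both lists overlap and grey bars for the gene spans. Inner peaks lie throughout the long genes, and the overlapping inner pair of Col25a1 sits 343.6 kb from its start.

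Overlapping RNAP2 and Med12 peaks inside the gene were found in 6 collagen genes, 14.3%, beside 3.68% of all coding genes. Among genes of 100 kb or more the shares were 24.0% and 21.5%. Each of the 6 genes held 1 such site, and the shared bases touched no exon except at Col12a1. The scores of the 6 sites had medians of 108 for RNAP2 and 77.4 for Med12, against 147 and 84.4 over the 1300 overlapping pairs inside any coding gene.

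The site in Col25a1 (ENSMUSG00000058897.8, chr3:129883809-130302795) stood apart from the other collagen sites. Its RNAP2 peak, from 130226174 to 130228060, had a score of 575, above the 552 of the gene's own start, and its Med12 peak, from 130226853 to 130228112, had a score of 551 and rank 55 of the Med12 list. Of the 1300 pairs, 11 had a higher Med12 score and 136 a higher RNAP2 score. The site lies in intron 15 of 37. The nearest start of another coding gene is that of Agxt2l1, 92.9 kb away and without a peak, and the next is that of Ostc, 184.9 kb away, with an RNAP2 score of 1028. Both antibodies therefore marked a position in the 3′ part of the gene that was 343.6 kb from the start of Col25a1 and nearer to the starts of these neighbours.

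The second highest site lay in Col5a2 (ENSMUSG00000026042.9, chr1:45431166-45560127), in intron 45 of 53 and 117.4 kb from the start. Its RNAP2 score was 132 and its Med12 score 119. Col5a2 and Col3a1 are neighbours that are transcribed toward each other, with starts 191.7 kb apart, and the site lies 74.3 kb from the start of Col3a1, nearer than to that of Col5a2. Both starts had RNAP2, and that of Col3a1 had Med12. Which gene the site serves was not tested.

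The other 4 sites had RNAP2 scores from 58.1 to 121 and Med12 scores from 57.8 to 81.8. In Col24a1 the site lay in intron 19 of 59, 94.1 kb from the start, with an RNAP2 score of 121 and a Med12 score of 68.2. In Col12a1 it lay at the 3′ end of the gene, 119.9 kb from the start, with scores of 95.1 and 73.1. Col8a1, a chain of the hexagonal networks of type VIII collagen, had its site in intron 1 of 3, 59.9 kb from the start, with 58.1 for RNAP2 and 81.8 for Med12. The site in Col23a1 had scores of 59.5 and 57.8. Neither Col8a1 nor Col23a1 had RNAP2 at the start, so that 2 of the 6 sites lay in genes whose own start had no peak. The share of such sites over all coding genes was not computed. The RNAP2 score of 2881 at the far end of Col23a1 belongs to a peak over the starts of Agxt2l2.

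**Figure D4:**
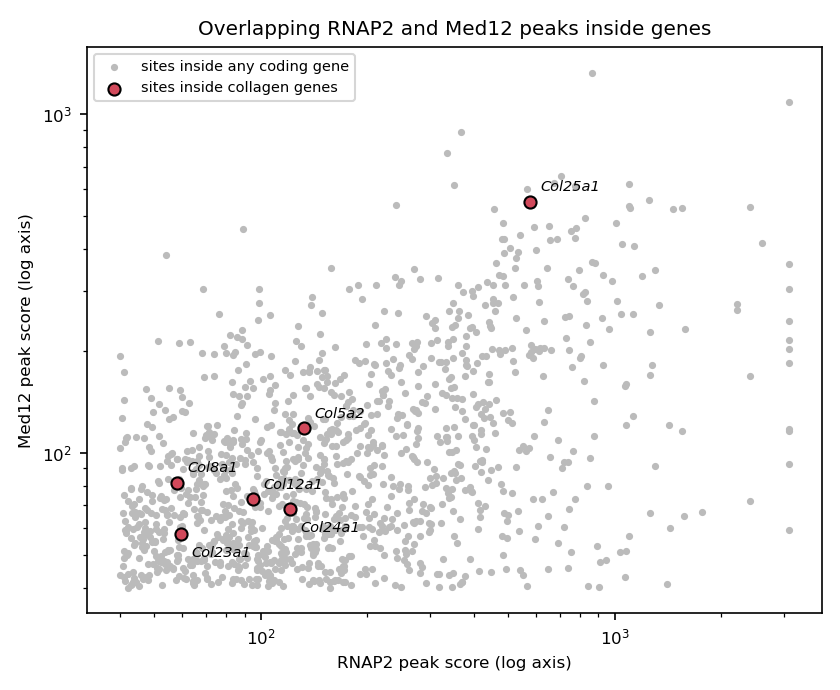
RNAP2 score (horizontal, log axis) against Med12 score (vertical, log axis) of the 1300 overlapping peak pairs inside any coding gene away from starts (grey) and of the 6 in collagen genes (red). The Col25a1 site, at 575 and 551, lies among the highest Med12 scores, and the other 5 lie in the body of the cloud, at Med12 scores of 119 and below.

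The letters of these sites differed from those of promoters. TATAAA was found in 4 of the 5 collagen sites searched, where 35.7% of all 1300 sites of the same kind held it within 300 bases, and in 6 of 42 collagen promoters (14.3%, against 13.4% of all coding promoters from 250 bases before to 50 after the start). The GC box GGGCGG was found in none of the 5 sites (6.0% of all sites) and in 23 collagen promoters (54.8%, against 43.4%). CCAAT was found in 1 site (39.1% of all) and 17 promoters (40.5%, against 37.9%). CAATAAA was found in the sites of Col5a2 and Col12a1 and in 14.1% of all sites, and can share letters with CCAAT. The AP-1 motif TGACTCA was found in 1 site, that of Col5a2 (4.0% of all). The Sox motif ACAAAG was found in 1 site (23.9% of all) and 5 collagen promoters (11.9%, against 17.6%). The other Sox motif, ACAATG, was found in 0 sites (13.2% of all) and 2 collagen promoters (4.76%, against 10.6%). With 5 sites these counts only describe the sequences.

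Collagen promoters with and without RNAP2 were close in base composition. The median GC content was 59.3% for the 16 collagen promoters with RNAP2 and 60.2% for the 26 without, and the median number of CpG was 10 and 12. Over all coding genes, the values were 61.3% and 50.3% for GC, and 22 and 5 for CpG. The Col3a1 promoter, printed above, was among those low in GC, with 35.2% and 0 CpG in its 250 bases, and holds a TATAAA. The 250 bases before Col9a1-002 hold 54.8% GC, 0 CpG and none of the motifs searched.

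Of the 30 inner RNAP2 peaks, 6 overlapped a Med12 peak, and 17.6% of the 7294 such peaks in any coding gene did, a close share. Of the 23 inner Med12 peaks, 6 overlapped an RNAP2 peak, a lower share than the 36.3% of 3706 in any coding gene. The difference rests on few peaks and was not tested. The remaining inner peaks did not overlap between the lists. Col5a1 had 4 RNAP2 peaks and no Med12 peak inside, of which the highest (149, in intron 4 of 65) lay 48.2 kb from the start, next to one with a score of 82.7 at 45.6 kb. Col3a1 had 3 RNAP2 peaks, at 2.8, 4.7 and 11.8 kb with scores of 53.1, 91.8 and 64.7, and a Med12 peak at 9.6 kb with a score of 49.8. This row of peaks gave Col3a1 the largest share of its span under RNAP2. Col25a1 had 3 more RNAP2 peaks, with scores from 60.3 to 71.2, and Med12 peaks of 57.4 and 64.2, none of which overlapped.

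Among the other genes, Col11a1 had RNAP2 peaks of 50.6 and 43.1 and a Med12 peak of 44.5, 181.4 kb from the start. Col4a1 had an RNAP2 peak of 47.8 and Med12 peaks of 58.6 and 41.0. Col4a2 had an RNAP2 peak of 74.4 without Med12. In 4 genes a Med12 peak was found inside the gene and RNAP2 neither at the gene start nor inside, namely Col4a4 (44.7 and 42.7), Col5a3 (46.9), Col28a1 (42.1) and Col9a1 (40.1 in intron 18 of 37, beside the peaks at its inner start). All of these Med12 scores were under 50, and the share of all coding genes with this pattern was not computed. Col19a1 and Col14a1, fibril-associated genes without RNAP2 at the start, had both kinds of inner peaks at different places. They were an RNAP2 peak of 59.1 and Med12 peaks of 59.5 and 53.8 in Col19a1, and an RNAP2 peak of 64.3 and a Med12 peak of 43.7 in Col14a1.

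The 50 kb before each gene, outside any coding gene and away from coding starts, were looked at after the lists had been seen. RNAP2 peaks lay there at 9 collagen genes (21.4%, beside 8.04% of all coding genes), Med12 peaks at 5 (11.9%, beside 6.93%) and overlapping peaks of both at 3 (7.14%, beside 2.37%), namely Col1a2, Col25a1 and Col24a1. These shares depend on how much intergenic sequence lies before a gene, and were not tested. Col1a2 (ENSMUSG00000029661.9, chr6:4454814-4491543) had such sites centred 20.7 kb and 47.1 kb before its start. The nearer had an RNAP2 score of 392 and a Med12 score of 193, and the farther 436 and 197. Col1a2 itself had RNAP2 and no Med12 at its start and no inner peak, so that the Med12 peaks counted for this gene lay upstream of it. In Col25a1 the site was 19.2 kb before the start, with scores of 486 and 126, and in Col24a1 50.0 kb before it, with 71.7 and 225.

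The sites upstream of Col1a2 are shown because they are the only pair of such sites before 1 collagen gene. They are 300 bases from the middle of the shared part, on the plus strand of mm9, which is the strand of transcription, with capitals as above.
Col1a2, 47.1 kb before the start, chr6:4407511-4407810: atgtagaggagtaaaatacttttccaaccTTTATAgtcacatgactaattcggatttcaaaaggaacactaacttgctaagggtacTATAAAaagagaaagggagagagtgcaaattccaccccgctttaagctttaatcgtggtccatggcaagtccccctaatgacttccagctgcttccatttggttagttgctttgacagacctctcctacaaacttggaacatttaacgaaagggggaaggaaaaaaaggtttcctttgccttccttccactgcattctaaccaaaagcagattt
Col1a2, 20.7 kb before the start, chr6:4434028-4434327: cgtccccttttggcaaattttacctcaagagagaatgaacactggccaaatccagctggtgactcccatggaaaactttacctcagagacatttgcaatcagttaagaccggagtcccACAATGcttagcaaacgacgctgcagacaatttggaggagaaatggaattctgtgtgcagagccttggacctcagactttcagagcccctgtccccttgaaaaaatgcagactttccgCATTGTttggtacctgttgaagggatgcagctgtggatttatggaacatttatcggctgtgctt

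The stricter limit, a score of 50, removed 6 of the 30 inner RNAP2 peaks and 9 of the 23 inner Med12 peaks. In what follows, the share of all coding genes stands in brackets. With this limit, 16 collagen genes kept RNAP2 at the start (38.7%), and 0 had Med12 there (6.14%) in place of 1. Inside the gene, 13 collagen genes had RNAP2 (10.4%) and 8 had Med12 (6.45%) in place of 15. A limit of 100 left 4 inner RNAP2 peaks and 2 inner Med12 peaks. With it, 15 collagen genes had RNAP2 at the start (33.9%), 0 had Med12 there (2.03%), 4 had RNAP2 inside (5.93%) and 2 had Med12 inside (2.05%). The bracketed shares cover genes of any length, and those among long genes were not computed at these limits. The inner Med12 peaks above this limit were those of Col25a1 and Col5a2, and the inner RNAP2 peaks those of Col25a1, Col5a1, Col5a2 and Col24a1.

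The genes that modify, fold and cut collagen chains had RNAP2 at the start in a larger share than the collagen genes themselves. Of 34 collagen synthesis genes, 21 had it (61.8%) and 6 had Med12 there (17.6%), and 7 had no peak (20.6%), where the shares over all coding genes were 40.0%, 8.20% and 51.7%. These counts are of genes. Leprel4 and Fkbp10, with neighbouring starts on chromosome 11, had the same RNAP2 start score of 251.5, so that a single peak may be counted for both. The highest scores were those of P4hb (3100) and P4ha1 (2128), subunits of the prolyl 4-hydroxylase that stabilises the helix, and of Plod2 (1981), a lysyl hydroxylase. Of 38 other matrix genes, 12 had RNAP2 at the start (31.6%), 4 had Med12 (10.5%) and 16 had no peak (42.1%), and the shares with RNAP2 and with Med12 lay near those of all coding genes. The highest RNAP2 scores of this list were at Fn1, which encodes fibronectin (1837), Fbn2, a fibrillin (1392), and Nid2, a basement-membrane nidogen (672). No collagen start reached the scores of P4ha1 or Plod2, the highest being 1236 at Col9a3. The lists, chosen with earlier results of these data known, were not compared by a test, since the genes are not replicates of a condition.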

How the data were processed

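The authors dissected distal forelimbs at E12.5, immunoprecipitated chromatin with antibodies to RNAP2 or Med12, mapped reads to mm9 with Bowtie, filtered out redundant reads and called peaks per library with MACS 1.4.1. The deposited files give each peak's position and a score, the negative log10 of its p-value multiplied by 10. The sources used here do not state that the input served as the control. Its reads were not analysed here.

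From the deposited lists, peaks were set against GENCODE vM1 genes on mm9. A start is the first base of a gene, and a peak was counted there if it shared at least 1 bp with 1 kb on either side. A peak inside a gene overlaps the span and lies over 1 kb from every coding transcript start. Counts were made with Python 3.11.15 and numpy 2.4.6, were checked with bedtools 2.31.1 and on simulated lists, and were plotted with matplotlib 3.10.9. Sequences are from the mm9 reference, and 1 sequence is not reported here. Values are given for members with Med12 at the start or inside, for the 10 highest RNAP2 starts, for the 5 largest covered shares and for paired starts, and other genes are named by the 3 highest starts of a list. The members, gene lists and alternatives were chosen with earlier results of these data known. The alternatives were other score limits, intervals, starts, overlaps and joined peaks.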

Additional observations from a re-analysis of the deposited data

How the results depend on the processing

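No paired analysis was possible because there was a single library for each antibody. Of 44 values recomputed for 10 results under 8 alternatives, 28 stayed within 1.5 times the reported count, or within the 95% Wilson interval over bases for a percent, and 16 did not. That interval treats bases as independent, although they lie in runs under peaks, and is too narrow to measure precision. For RNAP2, 1.23% lies outside it beside a reported 1.22%, so the tally depends on this rule. RNAP2 at the start was found in 15 to 18 collagen genes under every alternative run. A score of at least 100 lowered Med12 at the start and both proteins there to 0, RNAP2 inside to 4, Med12 inside to 2, overlapping inner sites to 2, the percent of gene bodies under RNAP2 to 0.597 and that under Med12 to 0.0725. A score of at least 50 gave 0 for Med12 and for both proteins at the start, 8 for Med12 inside, 1.10 for the percent under RNAP2 and 0.282 for that under Med12. Intervals of 5 kb gave 2 genes with Med12 at the start, and the starts of any coding transcript gave 2 for Med12 and 2 for both proteins. Joining peaks over gaps of up to 500 bp gave 1.23% under RNAP2. Fewer peaks pass a higher score limit by construction, and joined peaks can only add covered bases. A wider interval can only add genes counted at the start, and can only remove genes counted for inner peaks. With intervals of 5 kb, RNAP2 inside went from 15 to 14 genes. The gene added for Med12 was Col12a1 with intervals of 5 kb, and Col9a1 with the starts of any coding transcript.

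The lists hold no read counts, there is 1 library per antibody, and a peak below a score of 40.0 is not listed. The precision of any single score and the reading of a gene without a peak are limited by this.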
